A study of Mus musculus with 20 samples.

Results

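Mouse articular chondrocytes treated with the sulfated oxysterol 25-hydroxycholesterol-3-sulfate (25HC3S) were compared with the same kind of cells treated with the free sterol, 25-hydroxycholesterol (25HC). These were 10 of the 20 libraries of the study, 5 per sterol, and all 10 were used. Both sterols were given at 20 µM for 48 hours, so that dose and time were matched and 1 pair of compounds was compared. The labels describe chondrocytes from mice 6 weeks old. No source used here gives the strain, sex, genotype or passage. The other 10 libraries, 5 with the DMSO vehicle and 5 with 2 µM GW3965 (a man-made activator of liver X receptors), are given only as levels beside the results. It is not stated if replicates are separate cultures or animals. A p-value here therefore describes variation from library to library, part of which may be technical.

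25HC is cholesterol with an added hydroxyl on its side chain, made by the enzyme Ch25h, and macrophages are a known source of it. 25HC3S differs from it by a sulfate on the hydroxyl of carbon 3, an addition made in cells by sulfotransferases such as Sult2b1. Free 25HC is known to bind Insig proteins and hold the SREBP2 factor in the endoplasmic reticulum, which lowers transcription of the enzymes of cholesterol synthesis. Oxysterols also bind the liver X receptors (LXR), nuclear receptors that raise transcription of cholesterol exporters such as Abca1 and Abcg1. Chondrocytes build and maintain the collagen and proteoglycan matrix of joint cartilage, and they make cholesterol and carry these receptors. The question here was where the transcriptomes of the sulfated and the free sterol differed.

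The table gave FPKM, fragments scaled to gene length and library depth, and the depths worked out from it were 16356020 to 19365224 fragments in genes. 25HC3S replicate 1 stood apart from the other 9 libraries. It had 1171 genes with exactly 1 fragment, where the others had 1808 to 2049, and it detected 19648 genes, where the others detected 20847 to 21607. Mitochondrial genes held 3.14% of its fragments and 0.889% to 1.41% of those of the others. Counts of called genes in the lists below are therefore given with all 10 libraries and, where they differ, without it. The labelled cell type was checked on its markers. All 7 chondrocyte markers were at 1 FPKM or more in all 10 libraries, led by Col2a1, the main cartilage collagen, at 1510 to 2430 FPKM. So were 10 of 11 macrophage markers, whose summed level was 419 to 597 FPKM with 25HC and 243 to 383 with 25HC3S (243 in replicate 1), and no macrophage marker was at 0 in all 10 libraries. In bulk RNA, fewer cells of a type and less RNA per cell cannot be told apart. Erythroid and neutrophil markers summed to at most 0.716 FPKM.

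More genes were lower than higher with the sulfate. Of 12129 genes tested, 170 (1.4%) were called lower with 25HC3S than with 25HC and 32 (0.264%) were called higher, at an adjusted p under 0.05 in limma, 202 (1.67%) in all. Differences are on the log2(FPKM + 1) scale throughout, as 25HC3S minus 25HC with the standard error, and this scale understates the change of genes with low levels. The median difference was -0.49 among the genes called lower, 0.36 among those called higher and 0.0044 among all genes tested. Only 13 of the lower and 3 of the higher genes differed 2-fold or more, and 14 and 4 did without 25HC3S replicate 1. For 11828 genes (97.5%) the 95% interval of the difference lay within 2-fold in either direction, and for 10753 (88.7%) within 1.5-fold (11932 and 11484 without replicate 1), so for most genes a large difference between the sterols lay outside the interval.

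Without 25HC3S replicate 1 the counts were larger, with 474 genes lower (3.91%) and 199 higher (1.64%), 673 (5.55%) in all. All 170 lower and all 32 higher genes of the 10 libraries were called again in the same direction. Leaving out a single 25HC library gave 76 to 169 lower and 9 to 17 higher genes. Leaving out one of 25HC3S replicates 2 to 5 gave 100 to 115 lower and 12 to 16 higher. A fit over all 20 libraries, with the vehicle and GW3965 groups sharing the estimate of the spread, called 80 lower and 20 higher. Of the 72 called genes chosen for description 23 were not called in that fit, and they are named beside their lists. In all 10 of the fits that leave out 1 library, 75 of the lower and 7 of the higher genes were called. With all 10 libraries, in 166 of the 170 lower genes and in all 32 higher genes the 2 groups of 5 did not overlap, as was so for 4.07% of all genes tested with 25HC3S lower and 3.39% with 25HC3S higher (7.46% in either direction).

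**Figure D1:**
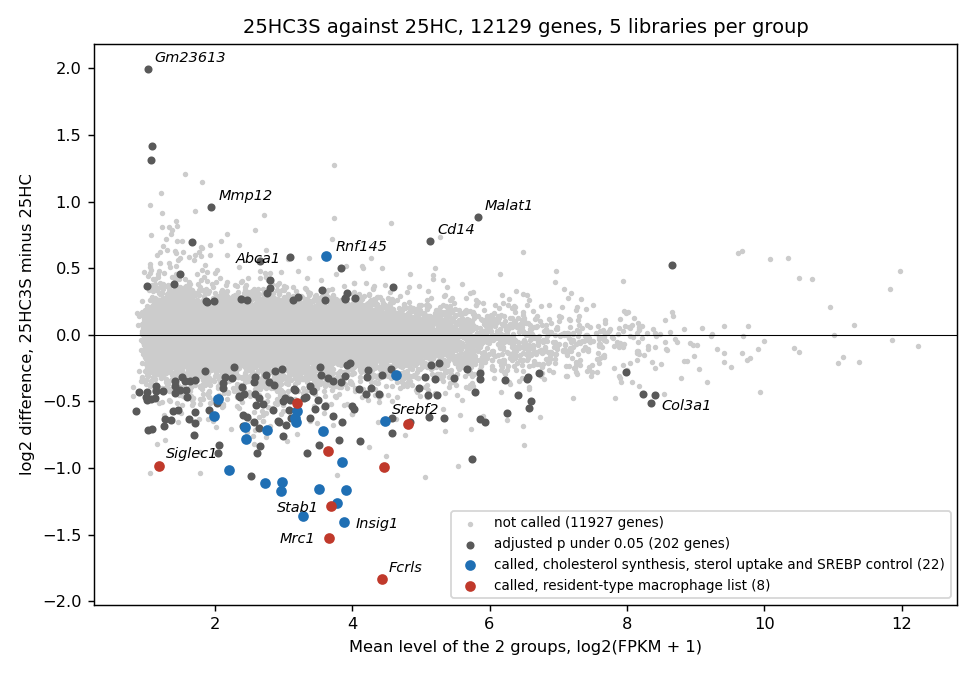
Difference between the sterols (vertical axis, log2, 25HC3S minus 25HC) against the mean level of each of 12129 genes (horizontal axis, log2(FPKM + 1)), each point 1 gene and each group 5 libraries. Of the 202 called genes (dark or coloured), 170 lie below 0, among them 21 sterol genes and 8 genes of the list of resident-type macrophages, and Rnf145 is the 1 coloured gene above 0.

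The enzymes of cholesterol synthesis were lower with 25HC3S almost throughout the pathway. Of 20 listed enzymes 18 were tested, and 16 were called lower, against 1.4% of all genes, with 0 called higher. Their median difference was -0.75, where the median over all genes was 0.0044. Without 25HC3S replicate 1, 17 were lower, against 3.91% of all genes, and the median was -0.77. Summed over the list, the level was 185 to 209 FPKM with 25HC and 91.0 to 111 with 25HC3S, and the groups did not overlap. In the fit over all 20 libraries 13 of the enzymes were called lower, and Mvd (adjusted p = 0.16), Nsdhl (0.071) and Acat2 (0.05) were not.

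At the start of the pathway, Hmgcs1, which makes the HMG-CoA that the pathway consumes (chr13:119690379-119708260), was at 17.6, 19.2, 21.9, 22.3 and 20.8 FPKM in 25HC replicates 1 to 5. With 25HC3S it was at 8.01, 7.28, 7.74, 8.13 and 8.18 FPKM. Every sulfate library was under 9 and every free sterol library over 17, and replicate 1 lay among the others. The difference was -1.26 ± 0.07 (adjusted p = 1.3e-05), 2.40-fold on this scale. Acat2, which supplies acetoacetyl-CoA, differed by -0.62 ± 0.12 (adjusted p = 0.025). Its call was lost in 6 of the 10 fits that leave out 1 library (25HC replicates 1, 3, 4 and 5 and 25HC3S replicates 2 and 3), with an adjusted p of up to 0.073.

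In the mevalonate and isoprenoid steps, Mvk, mevalonate kinase, differed by -0.57 ± 0.07, Mvd, the decarboxylase, by -1.11 ± 0.12 and Idi1, the isomerase of isopentenyl pyrophosphate, by -1.01 ± 0.12. Mvd was at 2.31, 3.68, 3.39, 3.91 and 4.50 FPKM with 25HC3S, with replicate 1 the lowest, and at 7.27 to 9.67 with 25HC. Pmvk, the kinase between Mvk and Mvd, did not pass the test (-0.53 ± 0.18, adjusted p = 0.2), and it did without replicate 1 (-0.34, adjusted p = 0.015). Fdps was under 1 FPKM in all 10 libraries and was not tested, like Tm7sf2, which reached 1.04.

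In the squalene branch, which commits the pathway to sterols, all 3 genes were lower. Sqle, squalene epoxidase (chr15:59315077-59331192), was at 14.9, 15.6, 17.9, 16.5 and 15.7 FPKM with 25HC. It was at 6.02, 6.27, 7.24, 6.98 and 6.93 FPKM with 25HC3S. The groups lay far apart relative to their spread, at -1.15 ± 0.06 (adjusted p = 1.3e-05). Fdft1, squalene synthase, differed by -1.10 ± 0.11, and in 25HC3S replicate 2 it was at 2.89 FPKM where the other sulfate libraries had 4.56 to 5.15. Lss, which closes the rings, differed by -0.61 ± 0.06.

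After lanosterol, Cyp51, the demethylase (chr5:4081145-4104746), was at 20.3, 19.5, 23.1, 23.0 and 21.2 FPKM with 25HC and at 8.48, 8.01, 9.50, 9.74 and 9.18 with 25HC3S (-1.17 ± 0.07, adjusted p = 1.3e-05). Msmo1, the methyl oxidase, was at 9.32 to 12.2 FPKM with 25HC and 3.11 to 4.94 with 25HC3S (-1.17 ± 0.11, adjusted p = 0.00026). Later steps differed less: Nsdhl by -0.69 ± 0.07, Hsd17b7 by -0.78 ± 0.09, Sc5d by -0.72 ± 0.11 and Dhcr7 by -0.48 ± 0.08. Ebp, the sterol isomerase, differed by -0.16 ± 0.11 (95% interval -0.40 to 0.09) and was not called with replicate 1 or without it. The called differences thus ran from -0.48 to -1.26, with the largest at Hmgcs1, Cyp51, Msmo1 and Sqle.

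**Figure D2:**
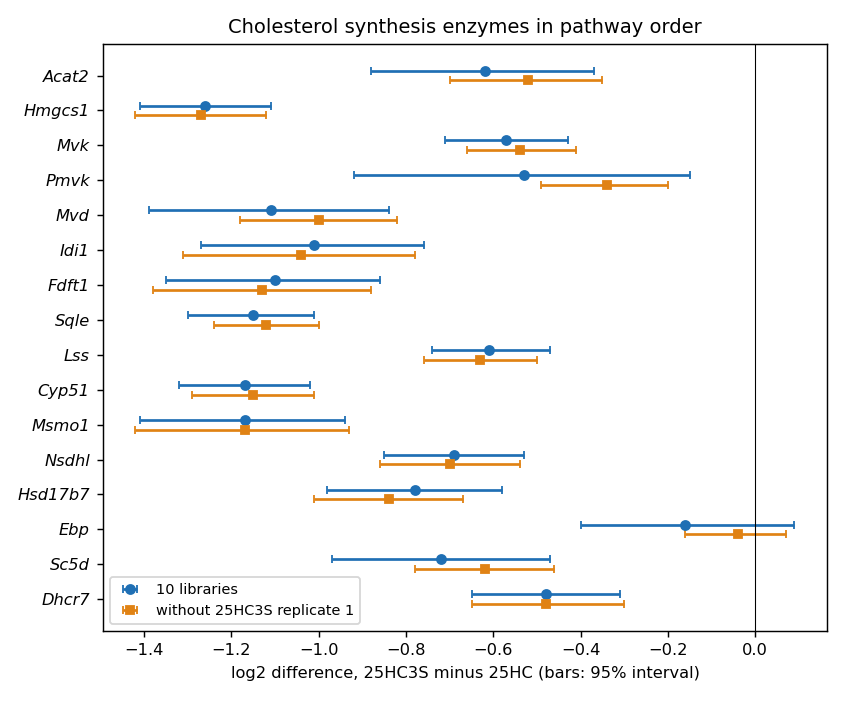
Difference between the sterols for 16 of the 18 tested enzymes of cholesterol synthesis, in the order of the pathway from top to bottom, with 95% intervals; the horizontal axis is log2, 25HC3S minus 25HC, circles are all 10 libraries and squares are without 25HC3S replicate 1. All 16 estimates lie below 0, and only the interval of Ebp reaches 0.

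Vehicle levels are given for scale, and the comparisons with vehicle were not tested here. Each sterol's difference from vehicle shares the vehicle libraries with the other's. Of those 5 libraries, 3 (replicates 2, 3 and 4) had 237 to 915 genes with exactly 1 fragment and stood apart like 25HC3S replicate 1. The lowest, median and highest vehicle values of Hmgcs1 were 12.4, 14.4 and 20.4 FPKM, between the medians of 25HC (20.8) and 25HC3S (8.01). Sqle (10.2, 11.4 and 12.9) and Cyp51 (15.2, 18.4 and 20.1) lay between the sterols in the same way. The vehicle median of Msmo1, 11.3, was inside the 25HC range, and that of Idi1 was 5.96 where 25HC had 4.73 to 6.79. Both medians came from vehicle replicate 2. In vehicle replicates 1 and 5, which did not stand apart, Msmo1 was at 6.97 and 8.76 FPKM. These lie between the sterol ranges (3.11 to 4.94 and 9.32 to 12.2). Idi1 was at 4.23 and 4.8 FPKM there, under and inside the 25HC range.

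The promoters of these enzymes were read because SREBP factors are known to act with the factor NF-Y, which binds CCAAT boxes. The 250 bases before the RefSeq start sites (build GRCm38.p6) were searched on both strands for CCAAT and for TCACNCCAC, an SREBP site core, and the motifs shared no base in the promoters shown. Of the 20 enzymes 15 had a promoter entry, and 14 of these (93.3%) held CCAAT, the exception being Acat2. CCAAT was held by 37.5% of all 27025 genes with an entry, by 40.6% of the 8912 tested genes with one, by 48.8% of the lower genes (60 of 123) and by 33.3% of the higher genes (6 of 18). TCACNCCAC was found in 1 of the 15 enzymes, Hmgcs1 (6.67%), in 6 of the 123 lower genes (4.88%) and in 1 of the 18 higher genes (5.56%), against 1.22% of all genes and 1.26% of tested genes. A match is only a description of letters, and a missing match says only that these letters are not in this window. The promoters of 5 enzymes called lower are printed to show the boxes, chosen after their values were seen, 5′ to 3′ on the gene's strand, with motif matches in capitals (ATTGG is CCAAT on the other strand).
Hmgcs1, chr13:119690101-119690350, plus strand: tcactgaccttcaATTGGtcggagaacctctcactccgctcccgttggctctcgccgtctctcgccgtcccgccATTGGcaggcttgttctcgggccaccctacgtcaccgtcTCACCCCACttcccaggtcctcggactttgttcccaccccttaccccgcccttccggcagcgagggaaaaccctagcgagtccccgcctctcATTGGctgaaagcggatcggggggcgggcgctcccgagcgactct
Msmo1, chr8:64733579-64733828, minus strand: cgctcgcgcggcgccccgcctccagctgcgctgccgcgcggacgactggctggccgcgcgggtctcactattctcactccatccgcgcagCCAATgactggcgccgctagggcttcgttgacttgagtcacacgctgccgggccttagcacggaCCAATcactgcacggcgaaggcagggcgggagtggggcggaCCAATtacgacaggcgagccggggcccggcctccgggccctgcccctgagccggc
Cyp51, chr5:4104698-4104947, minus strand: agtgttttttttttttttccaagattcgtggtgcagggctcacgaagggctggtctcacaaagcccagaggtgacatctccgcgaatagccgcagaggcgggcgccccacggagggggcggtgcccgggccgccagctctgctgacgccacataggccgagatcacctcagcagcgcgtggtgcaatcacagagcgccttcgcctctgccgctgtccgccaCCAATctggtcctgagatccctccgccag
Idi1, chr13:8885356-8885605, plus strand: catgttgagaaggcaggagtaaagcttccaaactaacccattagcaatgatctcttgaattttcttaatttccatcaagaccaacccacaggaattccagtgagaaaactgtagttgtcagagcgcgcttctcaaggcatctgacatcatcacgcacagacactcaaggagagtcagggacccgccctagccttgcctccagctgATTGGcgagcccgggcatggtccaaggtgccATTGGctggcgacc
Hsd17b7, chr1:169969206-169969455, minus strand: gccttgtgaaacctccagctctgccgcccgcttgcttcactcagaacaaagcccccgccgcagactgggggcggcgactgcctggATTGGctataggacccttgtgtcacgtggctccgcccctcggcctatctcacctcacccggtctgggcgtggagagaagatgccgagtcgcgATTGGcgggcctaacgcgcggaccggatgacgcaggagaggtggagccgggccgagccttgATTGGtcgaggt
Hmgcs1 held 3 CCAAT boxes, 237, 176 and 45 bases before the start, and its SREBP core lay at 137. Msmo1 and Hsd17b7 also held 3 boxes each, Idi1 held 2 and Cyp51 held 1, at 29 bases.

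Genes that take up sterols or control SREBP were split. Of 17 listed genes 16 were tested, with 5 called lower (among them Insig1, Stard4, Srebf2 and Srebf1) and 1 higher (Rnf145), and their median was -0.02. Without 25HC3S replicate 1 the counts were 7 and 1, with Npc2 and Lrp8 added. Over all genes 1.4% were lower and 0.264% higher, and 3.91% and 1.64% without replicate 1. Insig1, the retention protein that is itself a target of SREBP (chr5:28071363-28078662), was at 21.9, 20.0, 25.9, 24.8 and 22.4 FPKM with 25HC. It was at 6.02, 7.18, 8.73, 9.52 and 9.16 FPKM with 25HC3S. Replicate 1 was the lowest of the sulfate libraries, and the highest of them was under the lowest 25HC library by more than 10 FPKM. The difference was -1.41 ± 0.12 (adjusted p = 0.00016), the largest in the list.

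Srebf2, which encodes SREBP2, was at 25.3, 25.7, 27.9, 27.5 and 27.5 FPKM with 25HC and at 16.4, 15.0, 17.6, 17.5 and 17.5 with 25HC3S (-0.65 ± 0.06, adjusted p = 0.00022). Stard4, a cytosolic sterol carrier, was at 7.04 to 8.74 FPKM with 25HC and 4.07 to 4.64 with 25HC3S (-0.72 ± 0.06). Vehicle medians were 15.1 FPKM for Insig1 and 21.6 for Srebf2, between the 2 sterols, and 8.75 for Stard4, at the top of the 25HC range. That of Stard4 came from vehicle replicate 2, which stood apart. Vehicle replicates 1 and 5 had Stard4 at 5.64 and 6.32 FPKM, between the ranges of the 2 sterols.

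Other parts of the control machinery did not differ by much. Scap, which escorts SREBP, differed by 0.01 ± 0.05, Insig2 by 0.07 ± 0.05, the protease gene Mbtps1 by 0.06 ± 0.05 and Npc1, the lysosomal cholesterol exporter, by -0.05 ± 0.05. None of these passed the test.

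Among LXR target genes the exporters were higher with 25HC3S and Srebf1 was lower. Of 16 listed genes 13 were tested, with 3 called higher (Rnf145, Abca1 and Abcg1) and 2 lower (Cd5l and Srebf1), and the median was 0.05. Without 25HC3S replicate 1 it was 3 and 3, with Pltp added to the lower genes. Over all genes 0.264% were higher and 1.4% lower, and 1.64% and 3.91% without replicate 1. Rnf145, a ubiquitin ligase of the endoplasmic reticulum that acts on sterol control and also stands in the list above (chr11:44518964-44565520), was at 9.61, 8.85, 8.61, 9.10 and 9.07 FPKM with 25HC. With 25HC3S it was at 13.2, 14.0, 14.3, 14.8 and 14.3 FPKM. The groups were tight and separate (0.59 ± 0.05, adjusted p = 0.00016), and vehicle was at 8.26 to 9.49 FPKM, like 25HC.

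Abca1, the exporter that loads cholesterol onto apolipoproteins (chr4:53030787-53159895), was at 5.50, 5.70, 5.89, 6.76 and 5.97 FPKM with 25HC and at 13.1, 9.42, 8.81, 7.91 and 8.55 with 25HC3S. Replicate 1 was the highest sulfate library, and the others were still above all 25HC libraries. The difference was 0.58 ± 0.11 (adjusted p = 0.028), and 0.47 without replicate 1 (adjusted p = 0.0016). The call was kept without 25HC3S replicate 1 or 4 and lost without any other library (adjusted p up to 0.09). Vehicle was at 8.53 to 14.0 FPKM, median 11.3, where the sterol medians were 5.89 and 8.81, and GW3965 was at 108 to 113. The higher vehicle values were those of replicates 2, 3 and 4 (11.3, 13.8 and 14.0), which stood apart. Vehicle replicates 1 and 5 were at 8.53 and 8.6 FPKM, inside the 25HC3S range.

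Abcg1, which exports cholesterol to HDL, was at 1.39, 1.28, 1.56, 1.59 and 1.47 FPKM with 25HC and at 4.75, 2.60, 3.26, 2.31 and 2.42 with 25HC3S. Replicate 1 was again the highest, and the groups did not overlap (0.70 ± 0.14, adjusted p = 0.032; 0.56 without replicate 1, adjusted p = 0.0031). The call was lost without any 25HC library and without 25HC3S replicate 2 or 3 (adjusted p up to 0.094). Its vehicle range was 1.36 to 2.48 FPKM and its GW3965 range 33.2 to 37.3. Vehicle replicates 1 and 5, which did not stand apart, were at 1.83 and 1.79 FPKM, between the ranges of the sterols. The GW3965 dose differs from that of the sterols, so its levels are given side by side and not compared.

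The promoter of Abca1 is printed for its direct repeat of the LXR type, the one such repeat among the promoters printed here. The motif, GGTNA and GGTCA in the same direction with 5 bases between them, was searched on both strands, after the other motifs had been chosen, and was held by 0.189% of all genes and 0.135% of tested genes, by 2 of 123 lower genes and 1 of 18 higher genes, Abca1 itself.
Abca1, chr4:53159896-53160145, minus strand: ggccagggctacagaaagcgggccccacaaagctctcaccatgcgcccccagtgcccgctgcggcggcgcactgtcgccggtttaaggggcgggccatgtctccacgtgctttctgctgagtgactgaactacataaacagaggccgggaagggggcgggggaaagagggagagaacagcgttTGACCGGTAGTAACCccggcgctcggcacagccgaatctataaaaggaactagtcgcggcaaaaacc
The repeat, in capitals, lies on the other strand, 67 bases before the start.

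Srebf1, an LXR target that drives fatty acid synthesis, was at 27.7, 25.9, 27.1, 26.2 and 25.6 FPKM with 25HC and at 18.4, 21.8, 22.4, 22.1 and 22.1 with 25HC3S. Replicate 1 was lowest by itself (-0.30 ± 0.06, adjusted p = 0.032; -0.25 without it, adjusted p = 0.0015). The call was lost in the other 9 fits that leave out 1 library, up to an adjusted p of 0.1, and in the fit over all 20 libraries (0.47). Cd5l, a secreted protein of macrophages, was at 1.10 to 1.75 FPKM with 25HC and 0.320 to 0.755 with 25HC3S (-0.71 ± 0.10, adjusted p = 0.0063; 0.08 over all 20 libraries). Lpcat3 (0.07 ± 0.06), Mylip (0.14 ± 0.05) and Nr1h3, which encodes LXR alpha (-0.03 ± 0.06), were not called.

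**Figure D3:**
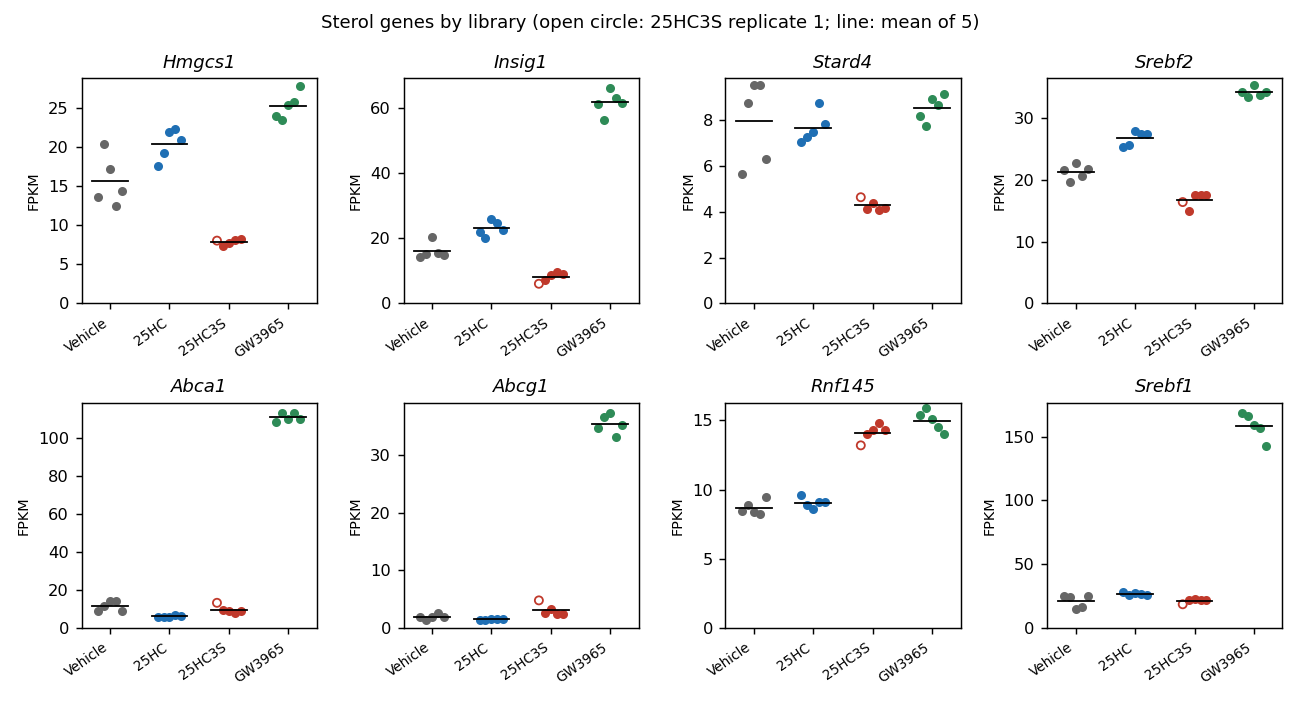
FPKM (vertical axes, from 0) of 8 sterol genes in all 20 libraries by group (horizontal axes); each point is 1 library, lines are means of 5 and the open circle is 25HC3S replicate 1. In the upper row every 25HC3S library lies under every 25HC library; in the lower row Abca1, Abcg1 and Rnf145 are above 25HC and Srebf1 is under it, and GW3965 reaches 108 to 113 FPKM for Abca1.

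Lipid genes outside cholesterol synthesis differed less, and those called were lower with 25HC3S. Of 16 tested genes of fatty acid synthesis and desaturation 5 were called lower, against 1.4% of all genes, and 0 higher (median -0.12). Without replicate 1 the count was 8, against 3.91%. Fads2, the delta-6 desaturase, was at 25.8, 24.4, 33.7, 28.1 and 31.4 FPKM with 25HC and at 17.0, 15.1, 19.3, 19.3 and 20.7 with 25HC3S (-0.62 ± 0.10, adjusted p = 0.014). Scd2, a stearoyl-CoA desaturase, was at 107 to 122 FPKM with 25HC and 70.9 to 87.9 with 25HC3S (-0.49 ± 0.07). Acsl3, which activates fatty acids, differed by -0.44 ± 0.06, Fads1 by -0.33 ± 0.06 and Acly, which makes cytosolic acetyl-CoA, by -0.32 ± 0.05. Fasn, the synthase itself, differed by -0.08 ± 0.07 and was called only without replicate 1 (-0.15, adjusted p = 0.041), as was Scd1 (-0.45 ± 0.13; -0.58 without it, adjusted p = 0.00048), a near copy of Scd2 whose fragments the counting could have shared.

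Of 20 tested PPAR target and lipid droplet genes 1 was called lower, against 1.4% of all genes. This was Plin2, a lipid droplet coat protein (-0.40 ± 0.07, adjusted p = 0.016). Its call was lost without 25HC replicate 1, 3 or 5 (adjusted p up to 0.059). Without 25HC3S replicate 1 the count was 3, against 3.91% of all genes, with Cpt1a and Fabp4 added. Of 12 tested genes that make or sense oxysterols 1, Gpr183, was called lower, against 1.4% of all genes. Gpr183, the receptor for dihydroxylated oxysterols on immune cells, was at 1.93 to 2.31 FPKM with 25HC and 0.903 to 1.53 with 25HC3S (-0.57 ± 0.09, adjusted p = 0.013). Without replicate 1 the count was 2, against 3.91%, with Osbpl8 added. Ch25h was at 7.28, 6.53, 7.31, 7.51 and 8.93 FPKM with 25HC and at 3.42, 5.73, 5.89, 8.23 and 6.01 with 25HC3S, which overlap (-0.34 ± 0.16, 95% interval -0.70 to 0.01). Cyp7b1, which breaks 25HC down, differed by 0.13 ± 0.10 (interval -0.10 to 0.36). Sult2b1 was at most 0.135 FPKM in these libraries and was not tested.

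Among the genes called lower, the 2 largest differences were those of the macrophage genes Fcrls and Mrc1. The list of resident-type macrophages holds mostly scavenger and endocytic receptors, with a few other genes such as Cbr2, Pf4 and F13a1. Of its 18 genes 13 were tested, with 8 called lower, against 1.4% of all genes, and 0 higher, and a median of -0.67. Without 25HC3S replicate 1 it was 10 lower, against 3.91% of all genes, with F13a1 and Scarb1 added, and a median of -0.68. The summed level was 173 to 225 FPKM with 25HC and 98.1 to 109 with 25HC3S. The macrophage markers checked above had lower sums with 25HC3S, and their part in these results was not tested. Cd163, Timd4, Lyve1, Marco and Clec10a were too low to be tested.

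Fcrls, a scavenger receptor-like protein of macrophages (chr3:87250758-87263738), was at 45.7, 30.0, 39.3, 39.5 and 44.5 FPKM with 25HC and at 10.5, 9.11, 12.9, 9.92 and 9.55 with 25HC3S. Its difference, -1.83 ± 0.12 (adjusted p = 2.3e-05), was the largest of all genes called lower, 3.57-fold on this scale. Mrc1, the mannose receptor (chr2:14229392-14332057), was at 20.1, 15.2, 21.9, 20.1 and 25.1 FPKM with 25HC and at 6.94, 5.56, 6.40, 6.71 and 6.39 with 25HC3S (-1.52 ± 0.11, adjusted p = 6.7e-05). Both genes had tight sulfate libraries, replicate 1 included, under every 25HC library. Stab1, which takes up modified LDL (chr14:31139013-31168641), was at 20.4, 15.6, 18.9, 19.7 and 21.4 FPKM with 25HC and at 7.14, 7.47, 6.75, 7.61 and 7.24 with 25HC3S (-1.29 ± 0.08, adjusted p = 1.3e-05).

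The other called receptors and markers of the list differed by smaller amounts. Cbr2, a carbonyl reductase found in resident macrophages, differed by -0.99 ± 0.11, Siglec1, the sialic acid receptor, by -0.98 ± 0.12, the chemokine gene Pf4 by -0.87 ± 0.11 and Adgre1, which encodes F4/80, by -0.67 ± 0.09. Msr1, scavenger receptor A, differed by -0.51 ± 0.10 and lost its call in 8 of the 10 fits that leave out 1 library (kept without 25HC replicate 2 or 25HC3S replicate 1; adjusted p up to 0.098). It was also not called in the fit over all 20 libraries (adjusted p = 0.2). The fatty acid receptor gene Cd36 (-0.14 ± 0.13) and Mertk, which engulfs dead cells (-0.13 ± 0.08), were not called. In vehicle the medians were 35.8 FPKM for Fcrls, 24.7 for Mrc1 and 18.2 for Stab1, within the 25HC ranges, and in GW3965 they were 24.9, 12.8 and 15.3.

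General macrophage markers showed a smaller and less even difference. Of 16 tested 3 were called lower (Cd68, Mpeg1 and Ctss), against 1.4% of all genes, and 0 higher, with a median of -0.45. Cd68, a lysosomal glycoprotein, was at 75.2, 64.7, 76.6, 60.3 and 80.8 FPKM with 25HC and at 42.5, 44.9, 49.8, 50.2 and 41.4 with 25HC3S (-0.63 ± 0.09, adjusted p = 0.0063). Mpeg1, a pore-forming protein of phagocytes, differed by -0.73 ± 0.12 and the protease gene Ctss by -0.62 ± 0.14, whose call was lost in 8 of the 10 fits that leave out 1 library (kept without 25HC replicate 2 or 25HC3S replicate 1; adjusted p up to 0.14). Without 25HC3S replicate 1 the median was -0.32 and 7 were lower, against 3.91% of all genes, with C1qa, C1qb, C1qc and Fcer1g added. The count was 5 without 25HC replicate 2. C1qa, a complement gene, was at 50.1 to 71.9 FPKM with 25HC and 13.2 to 42.5 with 25HC3S. Ptprc, which encodes CD45 and marks all leukocytes, did not separate the groups, at 1.68 to 2.57 FPKM and 2.13 to 2.99 (0.08 ± 0.09). Csf1r, the receptor for the macrophage growth factor, differed by -0.31 ± 0.09 and was not called (adjusted p = 0.16; 0.075 without replicate 1). In the fit over all 20 libraries Cd68 (adjusted p = 0.69) and Ctss (0.48) were not called. Cd68 was at 16.2 FPKM in vehicle replicate 2, which stood apart, and at 69.4 to 81.4 in the other vehicle libraries.

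A few receptors of activated myeloid cells were higher with 25HC3S. Of 17 listed genes 10 were tested, with 3 called higher, against 0.264% of all genes, and 0 lower, and a median of 0.35. Without replicate 1 it was 5 higher, against 1.64%, with Trem1 and Clec5a added, and without any other single library it was 1 to 3. Cd14, the coreceptor for bacterial lipopolysaccharide (chr18:36725074-36726736), was at 26.5, 20.4, 28.3, 29.3 and 28.3 FPKM with 25HC and at 35.2, 42.1, 50.7, 48.5 and 43.1 with 25HC3S. Replicate 1 was the lowest sulfate library and still above all 25HC libraries (0.70 ± 0.12, adjusted p = 0.013), and vehicle was at 22.0 to 28.7. Clec4e, a receptor for mycobacterial glycolipids, was at 0.649 to 0.992 FPKM with 25HC and 1.16 to 1.40 with 25HC3S (0.37 ± 0.07, adjusted p = 0.028). Spn, which encodes CD43, was at 1.18 to 1.57 and 1.66 to 2.35 (0.38 ± 0.08, adjusted p = 0.037). Clec4e lost its call in 7 and Spn in 8 of the 10 fits that leave out 1 library, among them those without 25HC replicate 1, 2, 3 or 4 and those without 25HC3S replicate 2, 3 or 4 (adjusted p up to 0.088 and 0.12). Spn lost it also without 25HC replicate 5 and in the fit over all 20 libraries (adjusted p = 0.18). Trem2 (-0.53 ± 0.18) and C5ar1 (-0.50 ± 0.18) had negative estimates and were not called, so the list did not move as one.

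**Figure D4:**
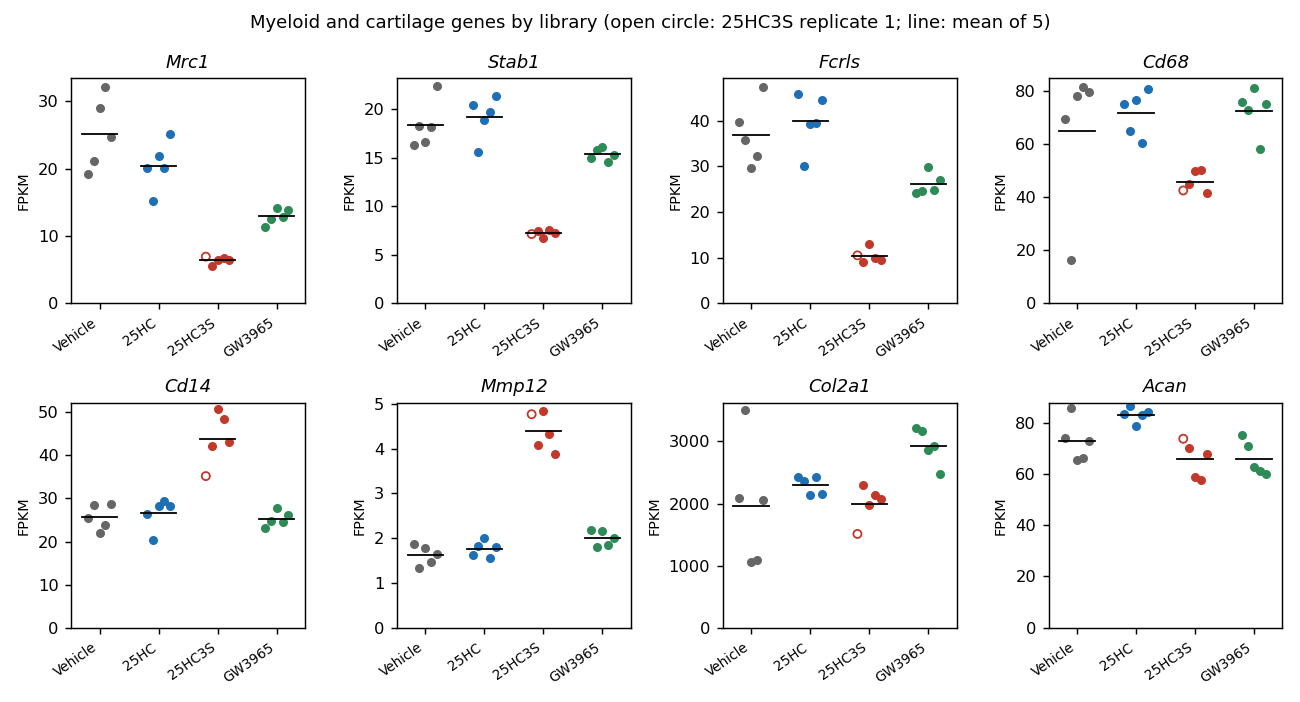
FPKM (vertical axes, from 0) of 6 myeloid genes and 2 cartilage genes in all 20 libraries by group (horizontal axes); each point is 1 library, lines are means of 5 and the open circle is 25HC3S replicate 1. Mrc1, Stab1, Fcrls and Cd68 are lower in every 25HC3S library than in any 25HC library, Cd14 and Mmp12 are higher, Acan is lower, and the Col2a1 ranges of the 2 groups overlap.

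Interferon-stimulated genes were lower with 25HC3S where they were called. Of 20 tested 5 were lower, against 1.4% of all genes, and 0 higher, with a median of -0.40. Without replicate 1 the count was 8, against 3.91%. Without 25HC replicate 2 it was 6, and without any other single library 2 or 3. Oas2, which senses double-stranded RNA, was at 1.75 to 2.28 FPKM with 25HC and 1.13 to 1.47 with 25HC3S (-0.44 ± 0.07, adjusted p = 0.011). Stat2, a transducer of the interferon signal, was at 9.90, 9.36, 8.82, 9.19 and 8.74 FPKM with 25HC and at 7.90, 6.13, 6.60, 6.64 and 6.36 with 25HC3S (-0.40 ± 0.07, adjusted p = 0.013). Isg15, a ubiquitin-like modifier, was at 17.7, 10.6, 15.7, 13.9 and 12.8 against 5.26, 8.25, 6.94, 10.3 and 7.21 FPKM, a wide spread with a narrow gap (-0.83 ± 0.16, adjusted p = 0.031). Rtp4 differed by -0.52 ± 0.10 and Ifit3 by -0.49 ± 0.10. Isg15 and Rtp4 were each lost in 7 of the 10 fits that leave out 1 library, both without 25HC replicate 1, 3, 4 or 5 or 25HC3S replicate 2 or 3, Isg15 also without 25HC3S replicate 5 and Rtp4 without 25HC3S replicate 4 (adjusted p up to 0.095 and 0.086). Ifit3 has a near copy, Ifit3b, with which fragments could have been shared. In the fit over all 20 libraries 1 of the list was called, and Oas2 (adjusted p = 0.24), Rtp4 (0.38) and Isg15 (0.73) were among those that were not.

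Inflammatory mediators did not pass the test in either direction. Of 16 tested, 0 were called in limma with the 10 libraries or without replicate 1, with medians of 0.07 and 0.13. The shares of all genes called in those fits were 1.67% and 5.55%. Over all genes 1801 (14.8%), and 2603 (21.5%) without replicate 1, had an unadjusted p under 0.05. Ptgs2, the inducible cyclooxygenase, was at 3.52 to 4.81 FPKM with 25HC and 4.00 to 6.15 with 25HC3S (0.28 ± 0.10, 95% interval 0.05 to 0.50, adjusted p = 0.25). The chemokine genes Ccl2 (0.38 ± 0.18) and Ccl5 (0.47 ± 0.19) had positive estimates with wide errors.

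Among matrix proteases and their inhibitors, which shape cartilage turnover, single genes differed. Of 20 tested 2 were higher (Mmp12 among them) and 2 lower (Plau and Adamts1), and the median was -0.04. Without replicate 1 the lower genes were 5, with Mmp2, Ctsk and Timp3 added. Over all genes 0.264% were higher and 1.4% lower, and 3.91% were lower without replicate 1. Mmp12, the macrophage elastase (chr9:7344381-7369499), was at 1.62, 1.83, 2.01, 1.56 and 1.81 FPKM with 25HC and at 4.77, 4.09, 4.85, 4.33 and 3.89 with 25HC3S. Its difference was the largest among the higher genes after 3 small RNA genes described last (0.96 ± 0.07, adjusted p = 6.7e-05), with vehicle at 1.34 to 1.87 and GW3965 at 1.81 to 2.18.

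Plau, the urokinase, was at 35.6 to 47.3 FPKM with 25HC and 26.9 to 35.4 with 25HC3S (-0.45 ± 0.09, adjusted p = 0.037). Its call was lost in 8 of the 10 fits (kept without 25HC replicate 2 or 25HC3S replicate 1; adjusted p up to 0.12), and it was not called over all 20 libraries (0.22). Adamts1, a versican and aggrecan protease, differed by -0.32 ± 0.05 (adjusted p = 0.013). The collagenase gene Mmp13, at 322 to 383 FPKM with 25HC and 360.0 to 444 with 25HC3S, differed by 0.11 ± 0.07 (95% interval -0.04 to 0.27). Mmp3, stromelysin, differed by 0.11 ± 0.16 (interval -0.25 to 0.46), and Adamts5, the main aggrecanase of mouse cartilage, by 0.22 ± 0.13 (interval -0.07 to 0.51). Without replicate 1, in which it was at 19.8 FPKM where the other sulfate libraries had 11.4 to 12.9, Adamts5 differed by 0.09. None of these 3 was called, and their intervals leave out a 1.5-fold difference in either direction.

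Cartilage matrix genes tended to lower estimates with 25HC3S, and few passed the test. Of 26 tested 3 were lower (Snorc, Cilp and Acan), against 1.4% of all genes, and 0 higher, with a median of -0.28. Without replicate 1, whose summed cartilage level of 3440 FPKM was the lowest, 8 were lower, against 3.91% of all genes. The median was then -0.21, and Comp, Col11a2, Col9a2, Col9a3 and Matn1 were added. Acan, the core protein of aggrecan (chr7:79053483-79115099), was at 83.3, 86.3, 78.5, 83.1 and 84.2 FPKM with 25HC and at 73.7, 70.2, 58.9, 57.8 and 67.8 with 25HC3S (-0.34 ± 0.07, adjusted p = 0.042; -0.38 without replicate 1, adjusted p = 0.0047). Its call was lost without any library other than 25HC3S replicate 1 (adjusted p up to 0.11) and in the fit over all 20 libraries (0.081). Vehicle ran from 65.3 to 85.7 FPKM, with its lowest value in replicate 3 and its highest in replicate 2, which stood apart. Vehicle replicates 1 and 5, which did not, were at 73.9 and 72.7 FPKM, under every 25HC library. Snorc, a chondrocyte membrane proteoglycan, differed by -0.68 ± 0.13 (adjusted p = 0.64 over all 20 libraries) and Cilp, a matrix protein of the middle zone, by -0.55 ± 0.11. Without 1 library other than 25HC3S replicate 1 the list had 0 to 2 calls: 0 without 25HC replicate 3, 4 or 5 or 25HC3S replicate 2 or 3, 1 without 25HC replicate 2 or 25HC3S replicate 4, and 2 without 25HC replicate 1 or 25HC3S replicate 5.

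Col2a1 was at 2430, 2370, 2130, 2430 and 2160 FPKM with 25HC and at 1510, 2300, 1980, 2140 and 2070 with 25HC3S. The ranges overlap and replicate 1 is the lowest (-0.21 ± 0.11, 95% interval -0.45 to 0.02, adjusted p = 0.37). Sox9, the chondrocyte factor, differed by -0.11 ± 0.07 (interval -0.27 to 0.04), and Prg4, the lubricin of the joint surface, by -0.17 ± 0.11 (interval -0.42 to 0.07). Neither was called.

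Of 19 tested genes of dedifferentiation and fibroblasts 3 were lower, against 1.4% of all genes, and 0 higher (median -0.20). Without replicate 1 the count was 4, against 3.91%, with Dpt added. Col3a1, a fibrillar collagen that chondrocytes gain as they lose their phenotype (chr1:45311538-45349706), was at 384, 370.0, 387, 416 and 384 FPKM with 25HC and at 261, 285, 275, 266 and 273 with 25HC3S. These groups were tight and apart (-0.51 ± 0.05, adjusted p = 0.00037), with vehicle at 312 to 715. Postn, periostin, differed by -0.41 ± 0.06 (adjusted p = 0.0098) and Acta2, smooth muscle actin, by -0.45 ± 0.10 (adjusted p = 0.048), the latter kept only without 25HC3S replicate 1 or 5 among the fits that leave out 1 library (adjusted p up to 0.14 otherwise). In the fit over all 20 libraries Col3a1 (adjusted p = 0.17) and Acta2 (0.059) were not called. Col1a1, the main collagen of bone and fibroblasts, differed by -0.20 ± 0.06 and was not called. None of 12 tested hypertrophy genes was called (median -0.13), where 1.67% of all genes were. Ibsp, a bone sialoprotein, was lower without replicate 1 (-0.27, adjusted p = 0.007), as were 3.91% of all genes.

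Few or no genes of the stress and growth programs were called, where 1.67% of all genes were. At that share, lists this short can hold no call. In limma with 10 libraries, 0 of 26 genes of the integrated stress response were called (median -0.06), 0 of 17 of the unfolded protein response (-0.03), 0 of 19 NRF2 targets (-0.04), 0 of 25 proliferation genes (0.10), 0 of 14 genes of hypoxia and glycolysis (0.07) and 0 of 9 of the IGF system (-0.12). Without replicate 1, Atf3, Tkt and Igfbp6 were called lower and Rrm2 and Bnip3 higher, 1 per list except the unfolded protein response, which again had 0. In that fit 5.55% of all genes were called. Mki67, a proliferation marker, was at 13.9 to 17.9 FPKM with 25HC and at 15.6 to 19.6 with 25HC3S replicates 2 to 5, and replicate 1 was at 36.3 (0.34 ± 0.19, 95% interval -0.07 to 0.76). Of 15 tested p53 targets, 8 Hedgehog genes and 22 lysosome genes, 1 per list was called lower, against 1.4% of all genes. These were Sesn1, which restrains growth signalling (-0.50 ± 0.11, adjusted p = 0.043), Gas1, a Hedgehog coreceptor (-0.45 ± 0.08, adjusted p = 0.016), and Gpnmb, a glycoprotein of phagocytes (-0.32 ± 0.05, adjusted p = 0.0086). Without replicate 1 the lysosome list had 4 lower, against 3.91% of all genes, with the cathepsin genes Ctsb, Ctsd and Ctsl added. Btg2, a p53 target, was then called higher, as were 1.64% of all genes. Sesn1 lost its call in 7 fits (kept without 25HC replicate 2 and 25HC3S replicates 1 and 5; adjusted p up to 0.13) and Gas1 without 25HC replicate 1, 3 or 4 (up to 0.056) and in the fit over all 20 libraries (0.29).

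Of 7 tested adipocyte markers 2 were called lower with the sulfate, against 1.4% of all genes. Without replicate 1 the count was 3, against 3.91%, with Fabp4 added. Car3, a carbonic anhydrase of fat and muscle, was at 6.64, 6.09, 8.33, 7.72 and 7.70 FPKM with 25HC and at 3.38, 2.26, 3.35, 2.95 and 3.00 with 25HC3S (-1.06 ± 0.10, adjusted p = 0.00035). Adipoq, the hormone of fat cells, was at 9.83 to 15.2 FPKM with 25HC and 4.28 to 7.92 with 25HC3S (-0.89 ± 0.15, adjusted p = 0.016), and lost its call without 25HC replicate 3 or 5 (adjusted p up to 0.058). Pparg, the regulator of fat cells, had a positive estimate (0.18 ± 0.08, not called). The 6 adipocyte markers checked summed to 36.4 to 58.7 FPKM with 25HC and 15.2 to 33.1 with 25HC3S, and their part in the lipid gene results was not tested. Of osteoblast, synovial and tendon, endothelial and muscle markers, 6, 7, 1 and 2 were tested and 0 were called in limma with 10 libraries. Over all genes the called share was 1.67%. Ibsp and the synovial marker Htra4 were called lower without replicate 1, as were 3.91% of all genes.

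**Figure D5:**
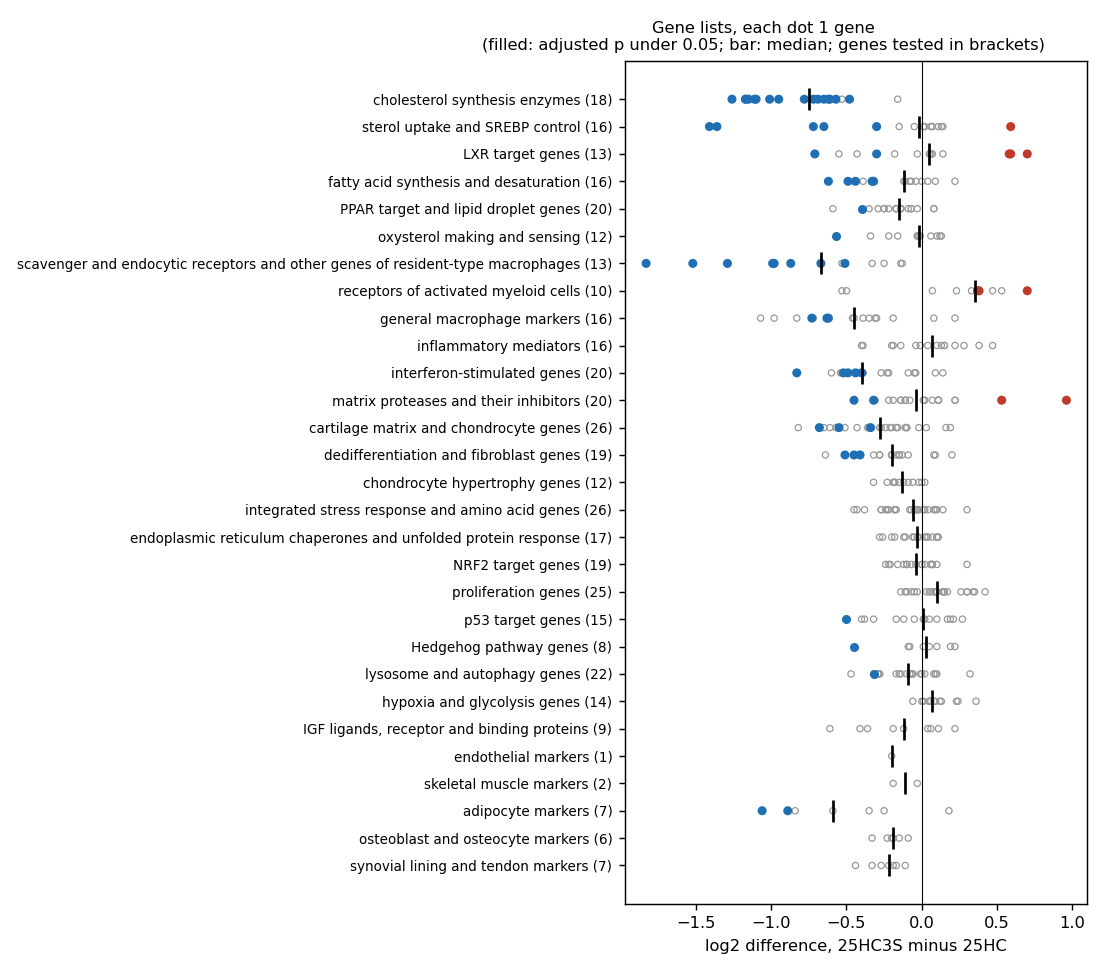
Difference between the sterols (horizontal axis, log2, 25HC3S minus 25HC) for each tested gene of the lists (vertical axis, number of genes tested in brackets); filled dots passed an adjusted p of 0.05, open dots did not, and bars are medians. The lowest medians are those of cholesterol synthesis (-0.75), the resident-type macrophage list (-0.67) and adipocyte markers (-0.59), and the highest is that of activated myeloid receptors (0.35).

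Of the genes called, 58 of the 170 lower and 8 of the 32 higher stand in any list, out of 409 listed genes tested. The largest differences among the higher genes outside the lists belonged to small or nuclear RNAs, and the first 3 rest on few fragments. Gm23613, a small nucleolar RNA gene of 87 bases (chrX:36776619-36776705), had 0 fragments in all 5 libraries with 25HC and 3 to 7 with 25HC3S. Gm23645, a small nuclear RNA gene of 108 bases, had 0 to 2 and 3 to 7, and Gm26394, a small nucleolar RNA gene of 115 bases, had 0 to 2 and 3 to 6. These are the 3 genes called higher by 2-fold or more, and no fold is given at such counts. Gm23645 lost its call without 25HC replicate 3, 4 or 5 (adjusted p up to 0.059), and Gm26394 without 25HC replicate 1 or 4 or 25HC3S replicate 2 or 5 (up to 0.066) and over all 20 libraries (0.14).

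Malat1, a long non-coding RNA of nuclear speckles (chr19:5795690-5802672), was at 43.1, 36.4, 42.9, 42.5 and 36.5 FPKM with 25HC and at 118, 74.9, 68.7, 67.6 and 57.5 with 25HC3S. Replicate 1 was the highest by far, and the rest were above all 25HC libraries (0.88 ± 0.16, adjusted p = 0.021; 0.72 without it, adjusted p = 0.00065). Vehicle ran from 51.3 to 195. Its higher values were those of replicates 2, 3 and 4 (126, 195 and 115), which stood apart. Vehicle replicates 1 and 5 were at 60.4 and 51.3 FPKM, above all 25HC libraries. The call of Malat1 was lost without 25HC replicate 1, 3, 4 or 5 or 25HC3S replicate 2 (adjusted p up to 0.069). Nrcam, a neuronal adhesion molecule, was at 3.80 to 4.59 FPKM with 25HC and 5.88 to 8.36 with 25HC3S (0.55 ± 0.08, adjusted p = 0.0089). Egr1, an immediate early factor, was at 9.29 to 12.9 and 14.0 to 19.4 (0.50 ± 0.11), Tslp, an epithelial cytokine, at 1.22 to 1.60 and 2.05 to 3.06 (0.46 ± 0.09), and Ncapg2, a condensin subunit, at 4.45 to 5.65 and 6.28 to 8.85 (0.41 ± 0.09). The calls of Egr1, Tslp and Ncapg2 were lost in 8, 9 and 9 of the 10 fits, that without 25HC3S replicate 1 keeping all 3 and that without 25HC replicate 5 keeping Egr1, with adjusted p up to 0.12, 0.098 and 0.13. Over all 20 libraries Malat1 (adjusted p = 0.24), Egr1 (0.11), Tslp (0.71) and Ncapg2 (0.51) were not called.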

How the data were processed

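RNA of 20 libraries was measured, and the 10 with 25HC or 25HC3S were compared. Trizol RNA went into a rapid library kit, per the labels' protocols. CASAVA 1.8 and HISAT2 2.0.5 are named in the submitters' processing notes. How fragments were counted, with or without strand, and on which build is not given in the sources used here. The authors deposited one table of FPKM for 54532 genes, with gene lengths and coordinates, of which 99.93% of identifiers are in GENCODE M21 (GRCm38) and 98.33% had that release's coordinates. Overlapping, antisense or near-identical genes can share fragments.

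FPKM times gene length came in whole steps, 1 step size for each library (tolerance 0.02, at least 99.9% of values), from which depth was read; with PCR and no molecular identifiers known, depth covers counting error only. FPKM are not counts, so log2(FPKM + 1) was fitted with limma 3.58.1 in R 4.3.3, with 1 mean per sterol and trended empirical Bayes. The 12129 genes with 1 FPKM or more in 5 or more of the 10 libraries entered the fit, two-sided, with Benjamini-Hochberg adjustment over all of them, and called at an adjusted p under 0.05. Tested on simulated data for this comparison (12129 genes, 200 changed), 185 were found with 11 false calls. By simulated fold, of 50 each, 42 (fold 1.5), 48 (fold 2), 48 (fold 4) and 47 (fold 0.5) were found. These counts describe the simulated data only, and whether they hold for the real libraries was not tested. In the real data the calls went from 202 to 673 without replicate 1 of the sulfate group, which stood apart.

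Genes and the 30 gene lists (496 genes, 493 found, the others being Sts, Ddit3 and Aldoa) were chosen with earlier results of these data known, so list counts are not independent evidence. Named were the 15 largest differences in each direction called with and without 25HC3S replicate 1, called members of the lists (up to 4 by adjusted p, more for the sterol and macrophage lists) and 29 genes fixed by name. Other list members are named to complete a list, and some genes under the rule are not reported here. Alternatives were the pseudocount, the filter, the libraries fitted, array weights, scaling, a replicate block and each library left out. Promoters are RefSeq's (GRCm38.p6).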

Additional observations from a re-analysis of the deposited data

Results flagged for a closer look

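In groups of 5 libraries, a gene was looked at again where 1 library's gap to the nearest other exceeded 0.71 of the group's range (Dixon's limit). Of 172 groups checked 16 passed it, 9 of them through 25HC3S replicate 1, and chance gives about 1 in 20.

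25HC3S replicate 1 was high for Tslp (3.06 FPKM where the others had 2.05 to 2.22; ratio 0.813), Ncapg2 (8.85 against 6.28 to 6.89; 0.736), Acly (31.3 against 27.9 to 28.6; 0.795), Adamts5 (19.8 against 11.4 to 12.9; 0.782) and Mki67 (36.3 against 15.6 to 19.6; 0.734). It was low for Srebf1 (18.4 against 21.8 to 22.4; 0.848) and Gas1 (58.4 against 72.2 to 77.0; 0.765). It was also low in its number of genes with exactly 1 fragment (0.764) and high in its mitochondrial share (0.966). Without it Tslp, Ncapg2, Acly, Srebf1 and Gas1 were called in the same direction, and Adamts5 and Mki67 were again not called.

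Other single libraries were far from the rest of their group for 6 genes and 1 library measure. 25HC3S replicate 2 was low for Fdft1 (2.89 FPKM; 0.779) and Nsdhl (2.61; 0.729), enzymes of cholesterol synthesis. 25HC replicate 2 was low for Cd14 (20.4; 0.717) and Cd5l (1.10; 0.9) and high for Ptgs2 (4.81; 0.76). 25HC replicate 1 was high for Acsl3 (6.44; 0.759), and 25HC replicate 4 was low in its mitochondrial share (0.718).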

How the results depend on the processing

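The counts of called genes moved most with the libraries used. No tested gene under the naming rule above changed direction under any setting, and the other list members named were not checked for this. With 32 genes higher and 170 lower as reported, no filter on low values gave 10 and 106, all 20 libraries in the fit 20 and 80, and array weights, which gave 25HC3S replicate 1 a weight of 0.056 where the others had 1.08 to 1.75, 254 and 573. Fits without 1 library gave 9 to 199 higher and 76 to 474 lower, the highest of each being without 25HC3S replicate 1. Of 72 called named genes, 72 kept their call without that library, 49 with all 20 libraries and 48 without a filter. A pseudocount of 0.1, a filter of 5 FPKM, rescaling to TPM and quantile normalization kept both counts within 1.5 times. Replicate numbers are shared by the groups. Same-numbered libraries deviated with correlations of -0.161 to -0.0188 over 5 pairs, and 0 correlated best with its own number. The deviations were taken from group means that include 25HC3S replicate 1, so this check cannot decide whether the numbers pair the libraries. The replicate block gave 11 higher and 66 lower genes and kept 44 of the 72 calls. Chosen after seeing the data, the replicate block without replicate 1 of both groups gave 78 higher and 249 lower, 16 libraries in the fit (without vehicle replicates 2, 3 and 4 and 25HC3S replicate 1) 324 and 598, and totals without mitochondrial genes 35 and 161. The cause of these moves was not tested. Depth limits genes near 1 FPKM and short genes with a few fragments.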

Other observations

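The lists cover 66 of the 202 called genes, and among the rest the genes below were chosen after their values were seen and are given as values only. Further myeloid genes were lower with 25HC3S, on the log2(FPKM + 1) scale: Cotl1, an actin-binding protein, by -0.93 and Fcgr1, a high-affinity Fc receptor, by -0.89 (adjusted p in limma of 0.0063 and 0.008). The Toll-like receptor genes Tlr1 (-0.49), Tlr8 (-0.56) and Tlr13 (-0.62) were called lower. Tlr2 (0.33 ± 0.11, and 0.24 without 25HC3S replicate 1) and Tlr4 (0.23 ± 0.16, and 0.05 without it) were not called in either fit. Hpgds, which makes prostaglandin D2, differed by -0.56 and Idh1, a cytosolic source of NADPH, by -0.40 (adjusted p = 0.0014 and 0.0015). Ly6c1, a surface antigen of endothelial and myeloid cells, differed by -0.80 (adjusted p = 0.00024) and Slc7a8, an amino acid transporter, by -0.79.

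Of cartilage and growth factor genes outside the lists, Fgfr3, which restrains growth plate chondrocytes, differed by -0.42 (adjusted p = 0.043), Clec3a, a cartilage lectin, by -0.53 (0.046) and Nov, a matricellular protein also known as Ccn3, by -0.55 (0.0044). Among the higher genes were Fgf7, a growth factor of mesenchymal cells (0.36, adjusted p = 0.017), Relb, a subunit of NF-kappa-B (0.35, adjusted p = 0.036), and B4galt5, a galactosyltransferase of glycosphingolipids (0.31, adjusted p = 0.01). All of the genes named as called here were called again in the same direction without 25HC3S replicate 1.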
